A study of Rattus norvegicus with 30 samples.

Results

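The genes of GABA neurons were examined in brain RNA of 30 male Sprague Dawley rats, as a list of 10 genes. These are Slc32a1, Gad1 and Gad2, which every GABA neuron uses, and 7 genes that mark its subtypes, namely Pvalb, Sst, Vip, Npy, Cck, Reln and Calb2. Of the 10 genes, 9 were matched by symbol among the 17134 genes of the table, and the level of Pvalb, which was not matched, is not analysed here. The list was selected on the readout: Slc32a1 was chosen by its lower level in HIP rats, so its difference between HIP and WT rats is given as a description without a test, and so are those of the other genes in HIP vs. WT. The rats form 3 groups of 10. WT rats express rat amylin, HIP rats express human amylin as well in pancreatic β-cells and develop diabetes, and AKO rats are rat amylin knock-outs. All received normal diet. An age of 15 to 16 months is stated for WT and HIP rats and is not given in the labels for the AKO rats. The tissue is frontal cortex in the labels, hippocampus or cerebral cortex in the text of the study.

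GABA is the main inhibitory transmitter of the forebrain. Gad1 and Gad2 encode the enzymes that make it from glutamate, and Slc32a1 encodes the transporter that loads it into synaptic vesicles. Cortical interneurons are divided by the peptides and calcium-binding proteins they make, among them somatostatin (Sst), vasoactive intestinal peptide (Vip), neuropeptide Y (Npy), cholecystokinin (Cck), the secreted glycoprotein reelin (Reln) and calretinin (Calb2). Most neurons of the striatum and the granule and periglomerular cells of the olfactory bulb also use GABA, as do the Purkinje cells of the cerebellum, while cerebellar granule cells carry Reln and Calb2 without being GABA neurons. Cck is also made by excitatory cortical neurons. In bulk RNA, fewer cells of a type and less RNA per cell cannot be told apart. For this reason each gene is given beside Cdhr1, a gene of the output neurons of the olfactory bulb, and Drd2, a dopamine receptor gene of striatal projection neurons.

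The values are normalized counts, that is reads per gene divided by a size factor of each rat. Their totals were 15.4 to 17.6 M in WT, 15.7 to 17.2 M in HIP and 15.8 to 17.98 M in AKO rats. Several rats carried genes of another brain region and are named here because results rest on them. Gabra6, a receptor subunit of cerebellar granule cells, was at 17979 in WT rat 10RT43 and at 1564 in HIP rat 12RT23, against at most 16.5 in the other 28 rats. HIP rat 10RT46 had 19081 of Tph1, the serotonin enzyme of the pineal gland, and 14881 of Ttr, the main transcript of choroid plexus. Ttr was also at 3445 in AKO rat 7AKO19, against at most 35.4 in the other 28 rats. Of the 11 matched markers of cortical excitatory neurons, the summed level was 15660 to 45177 in WT, lowest in 10RT43, 36588 to 49852 in HIP and 27719 to 51194 in AKO rats. Slc17a7, the vesicular glutamate transporter of those neurons, was at 12337 in 10RT43 and at 20203 to 42731 in the other 29 rats. Results are given with all rats and without 10RT43, 10RT46 and 7AKO19.

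Content of olfactory bulb and striatum also varied between rats of one group. Cdhr1 ranged from 15.5 to 8224 in WT rats with a median of 157.6, from 98.4 to 4707 in HIP rats with a median of 371, and from 123 to 7705 in AKO rats with a median of 704. It was above 3000 in 5 rats, namely WT rats 10RT50 and 10RT51, HIP rats 10RT49 and 10RT53, and AKO rat 6AKO35. Drd2 ranged from 56.8 to 772 in WT, from 39.8 to 576 in HIP and from 53.6 to 620 in AKO rats, and its highest rats were 10RT55, 10RT54 and 4KAH27. The groups overlapped in both genes.

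Slc32a1 was lower in HIP than in WT rats, which is what chose it. It was 2065 ± 362 (mean ± SD, n = 10) in WT, 1594 ± 298 (n = 10) in HIP and 1706 ± 482 (n = 10) in AKO rats. In WT rats it ranged from 1743 to 2815 with a median of 1951, in HIP rats from 1193 to 2101 with a median of 1504, and in AKO rats from 1121 to 2758 with a median of 1667. Of the HIP rats, 8 of 10 were below every WT rat, and the other 2 were 10RT49 at 2054 and 10RT53 at 2101, both with Cdhr1 above 3000. The highest WT rats were 10RT43 at 2815, 10RT50 at 2515 and 10RT51 at 2285. Of the AKO rats, 5 of 10 were below every WT rat, and the highest was 6AKO35 at 2758.

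Gad1, which makes most of the cell's resting supply of GABA, ranged from 4874 to 11608 in WT rats (median 5517), from 3903 to 9065 in HIP rats (median 5453) and from 3181 to 14343 in AKO rats (median 4858). Its values fell into separate ranges. The 5 rats with Cdhr1 above 3000 had 11608 (10RT50), 9589 (10RT51), 9065 (10RT49), 8602 (10RT53) and 14343 (6AKO35), and 10RT43 had 9348. The other 24 rats were between 3181 and 5780.

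Gad2, the isoform held at nerve terminals, did not follow Gad1 closely. It ranged from 644 to 1795 in WT rats (median 1020), from 510 to 1291 in HIP rats (median 1151) and from 200 to 1873 in AKO rats (median 863). The 2 lowest rats were AKO rat 6KAH98 at 200 and HIP rat 10RT46 at 510. The Gad1 to Gad2 ratio, compared between rats and not between the genes, had medians of 6.31 in WT, 5.54 in HIP and 5.53 in AKO rats. It was 15.9 in 6KAH98 and 12.3 in 10RT43, against 3.59 to 8.73 in the other 28 rats.

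**Figure D1:**
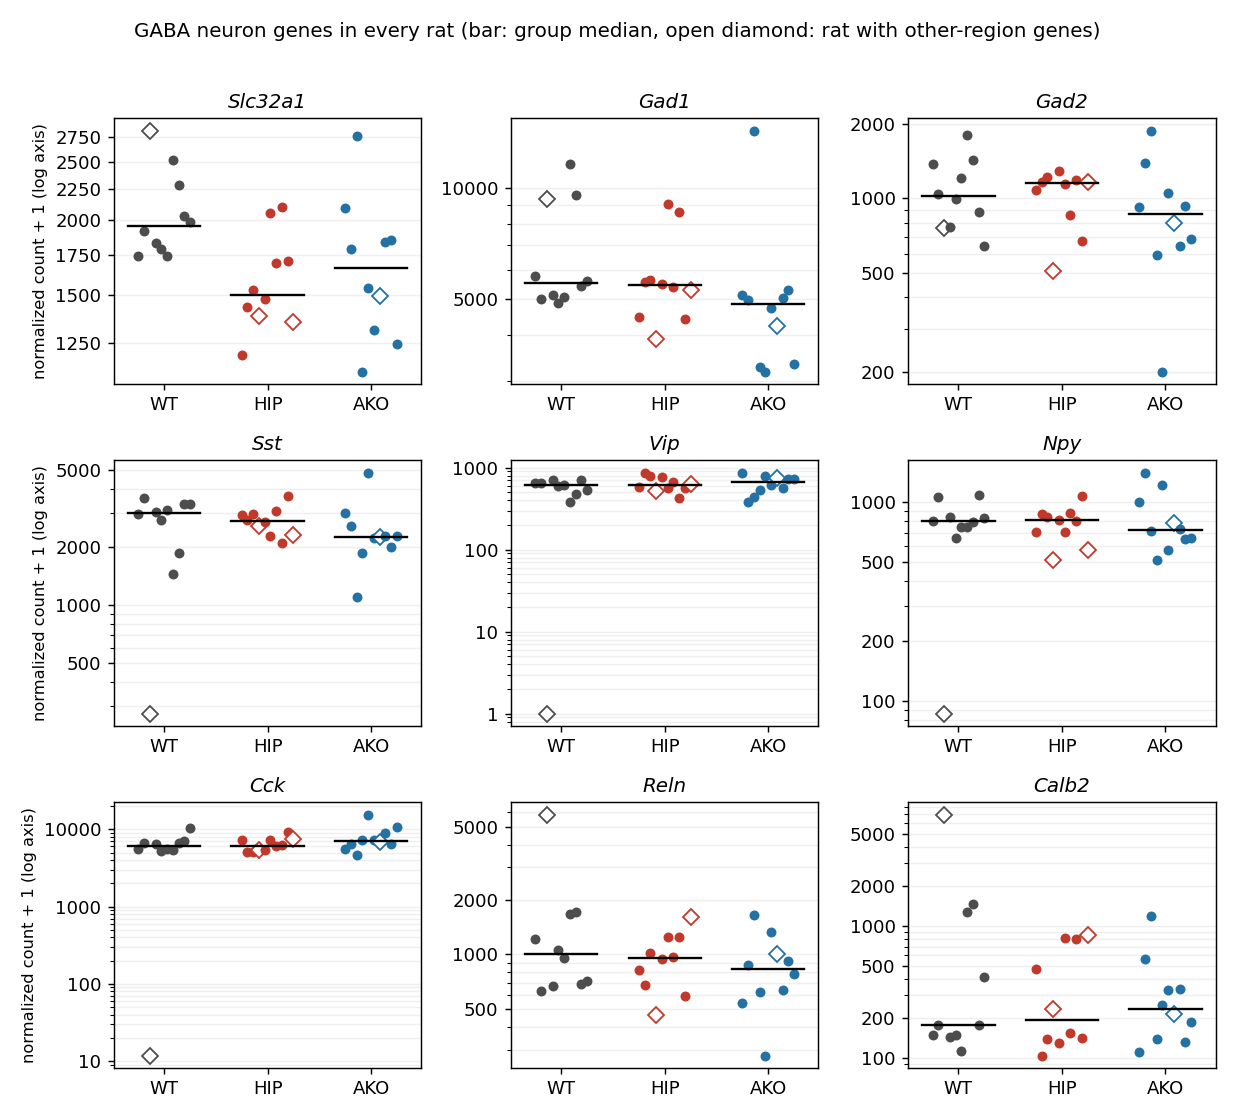
Normalized count plus 1 (log axis) of the 9 matched genes in each of 30 rats by group; bars are group medians and open diamonds are 10RT43, 10RT46, 7AKO19 and 12RT23. WT rat 10RT43 lies far below the other WT rats in Sst, Vip, Npy and Cck and above them in Reln and Calb2, and 8 of 10 HIP rats lie below every WT rat in Slc32a1.

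The peptide genes overlapped in the 3 groups. Sst ranged from 274 to 3594 in WT rats (median 2996), from 2079 to 3667 in HIP rats (median 2726) and from 1104 to 4838 in AKO rats (median 2259). Its lowest rats were 10RT43 at 274, 6AKO35 at 1104, 10RT50 at 1442, 6AKO52 at 1847 and 10RT51 at 1850, and its highest was 6KAH98. All 5 rats with Cdhr1 above 3000 were below the median of their own group.

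Vip was at 0 in 10RT43 and ranged from 382 to 711 in the other WT rats. It ranged from 422 to 872 in HIP rats (median 609) and from 377 to 863 in AKO rats (median 672). The 4 lowest rats other than 10RT43 were 4KAH35 at 377, 10RT50 at 382, 10RT53 at 422 and 6AKO35 at 433, and their Cdhr1 was 2387 or more.

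Npy ranged from 84.9 to 1085 in WT rats (median 795), from 509 to 1064 in HIP rats (median 805) and from 510 to 1402 in AKO rats (median 720). The highest rats were 4KAH35 at 1402, with Drd2 of 410, and 6KAH98 at 1219, with Drd2 of 87.5. The next were 10RT55 at 1085, 10RT54 at 1064 and 10RT39 at 1053, which had Drd2 of 772, 576 and 420.

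Cck was at 10.8 in 10RT43 and between 5320 and 10436 in the other WT rats. It ranged from 5036 to 9202 in HIP rats (median 6154) and from 4699 to 15571 in AKO rats (median 6993). The 15571 belonged to 6KAH98, the AKO rat with the lowest Gad2 and the highest Sst, in which Slc17a7 was 42731, the highest of the 30 rats.

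Reln and Calb2 were highest in 10RT43, at 5844 and 6999. Reln ranged from 634 to 1698 in the other WT rats, from 464 to 1605 in HIP rats (median 955) and from 278 to 1638 in AKO rats (median 828). Its highest HIP rat was 12RT23, the other rat with cerebellar genes, and its lowest AKO rat was 6KAH98. Calb2 ranged from 112 to 1457 in the other WT rats, from 104 to 863 in HIP rats (median 195) and from 111 to 1194 in AKO rats (median 235). Apart from 10RT43, the highest Calb2 levels were 1457 in 10RT51, 1276 in 10RT50, 1194 in 6AKO35, 863 in 12RT23, 812 in 10RT49 and 796 in 10RT53. They are the 5 rats with Cdhr1 above 3000 and the HIP rat with cerebellar genes.

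**Figure D2:**
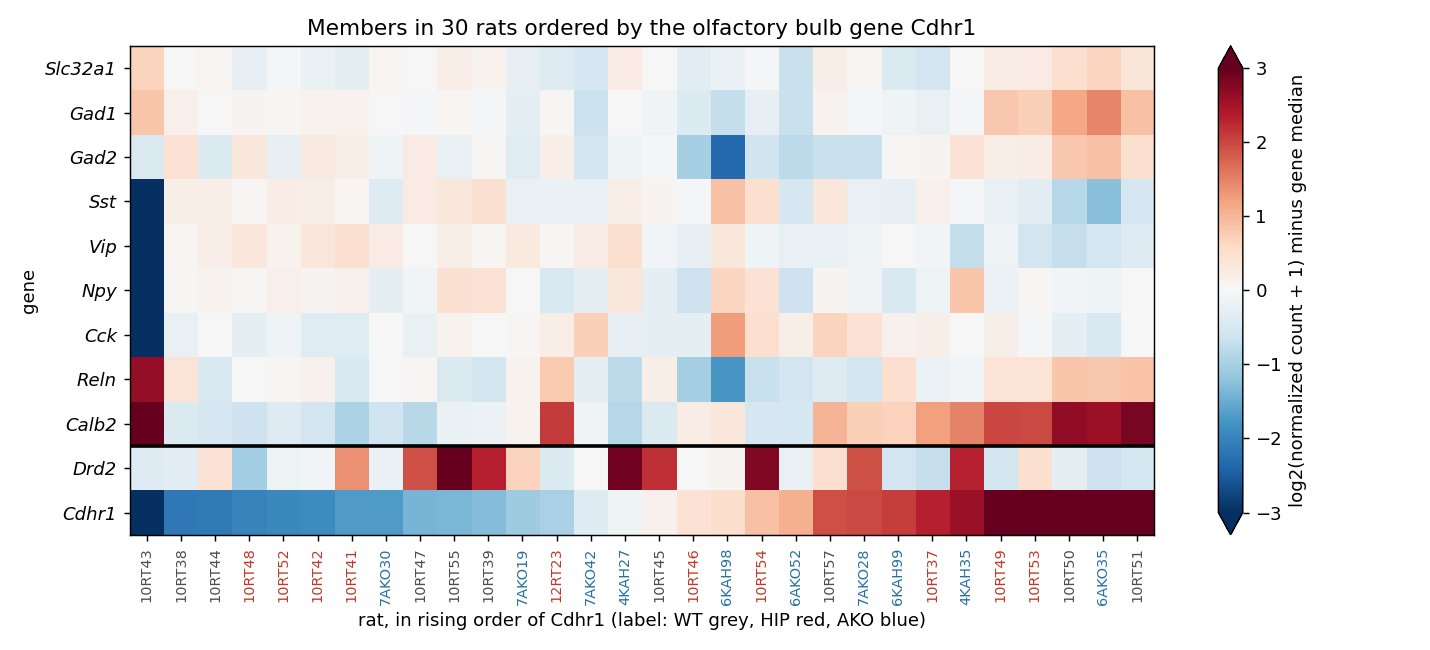
Each column is a rat in rising order of Cdhr1 and each row a gene; colour is log2(normalized count + 1) minus the median of the gene over 30 rats, cut at 3 log2 units either way. Calb2 and Gad1 are red and Sst and Vip are blue in the rats at the right end, where Cdhr1 is above 3000, and 10RT43 at the left end has its own pattern.

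HIP vs. WT differences of the members were set out as a description. With all rats the log2 difference of Slc32a1 was -0.38 (SE 0.11, n = 10 and 10). Without 10RT43, 10RT46 and 7AKO19 it was -0.30 (SE 0.10). With Cdhr1 and Drd2 as covariates it was -0.40 with all rats and -0.26 (SE 0.09) without these 3 rats and 12RT23. Leaving out each rat in turn gave -0.42 to -0.32, the last without 10RT43. The other members had log2 differences of -0.20 (Gad1), -0.07 (Gad2), 0.31 (Sst), 1.03 (Vip), 0.20 (Npy), 0.89 (Cck), -0.36 (Reln) and -0.45 (Calb2), with SEs of 0.18 to 0.86. Without the 3 rats these were -0.08, -0.01, -0.01, 0.14, -0.06, 0.01, 0.01 and 0.04 in that order. The larger values for Vip, Cck and Sst rested on 10RT43. With only that rat left out they were 0.11, -0.02 and -0.02. With Cdhr1 and Drd2 as covariates and all rats, Gad1 was at -0.33 (95% interval -0.66 to -0.0070), Reln at -0.60 (-1.22 to 0.015) and Calb2 at -1.01 (-2.27 to 0.25). Without the 3 rats and 12RT23 the covariates gave Calb2 -0.38 (-0.70 to -0.060), Reln -0.24 (-0.55 to 0.070) and Gad1 -0.15 (-0.41 to 0.12). In the same rats without covariates Calb2 was at -0.16 (-1.37 to 1.04), of the same sign with a wider interval. Of the 9 members 1 (Slc32a1) had an unadjusted limma p-value under 0.05, where 2.57% of all tested genes had one. Since the contrast chose that gene, nothing is read from the count.

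AKO vs. WT addresses the same genes in rats without amylin. Slc32a1 is again a description, since its WT rats were used to choose it: its log2 difference was -0.31 (SE 0.14) with all rats and -0.24 (SE 0.14) without the 3 rats. No member had an adjusted p-value under 0.05 in limma with Benjamini-Hochberg adjustment over all genes, and 0.0997% of all tested genes had one. At an unadjusted p-value under 0.05 there were 0 of the other 8 members, where 9.34% of all genes had one. Gad1 had a log2 difference of -0.41 (95% interval -0.89 to 0.07, adjusted p = 0.58) and was below the WT median in 9 of 10 AKO rats. Gad2 differed by -0.39 (-0.99 to 0.21, adjusted p = 0.66) and Reln by -0.57 (-1.30 to 0.17, adjusted p = 0.62). With each rat left out Gad2 ranged from -0.53 to -0.17 and Reln from -0.69 to -0.31. The intervals of Vip, from -0.77 to 2.79, and Cck, from -0.63 to 2.91, were wide with 10RT43 among the WT rats. Without the 3 rats their estimates moved from 1.01 to 0.06 and from 1.14 to 0.25, and those of Sst and Npy changed sign, from 0.08 to -0.25 and from 0.24 to -0.08. With Cdhr1 and Drd2 as covariates Gad1 was at -0.56 (-0.99 to -0.12, adjusted p = 0.42) with all rats. It was at -0.49 (-0.89 to -0.099, adjusted p = 0.36) without the 3 rats and 12RT23, a setting chosen after seeing the data. In the second of these fits Reln was at -0.53 (-1.03 to -0.037, adjusted p = 0.43) and Calb2 at -0.53 (-0.95 to -0.11, adjusted p = 0.36). Again 0 of 9 members had an adjusted p-value under 0.05 in limma, beside 12 of all 17017 genes.

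HIP vs. AKO shares its rats with the other comparisons. The members had log2 differences between -0.25 (Cck, 95% interval -0.60 to 0.10) and 0.32 (Gad2, -0.25 to 0.90), with adjusted p-values in limma of 0.54 or more. Of the 9 members 0 had an adjusted p-value under 0.05, where 0.17% of all genes had one, and 0 had an unadjusted one, where 12.7% of all genes had. Slc32a1, a description here too, differed by -0.07 (SE 0.14).

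**Figure D3:**
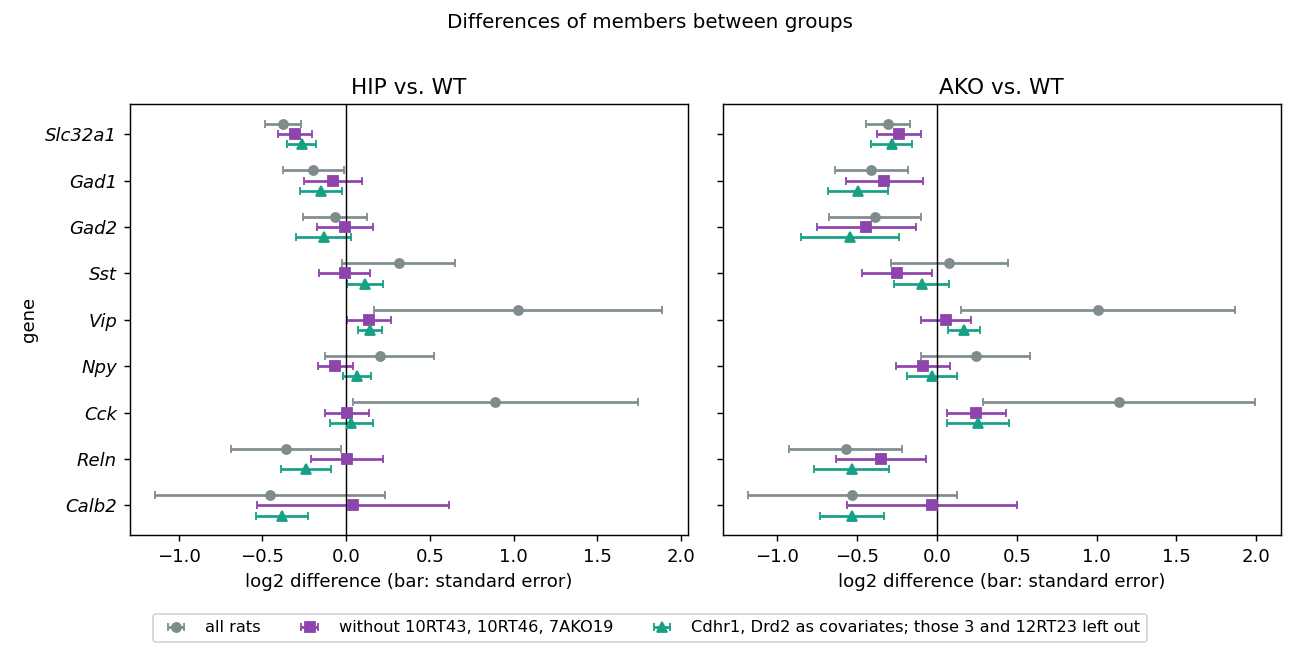
Log2 differences of the 9 genes (x axis) in HIP vs. WT and AKO vs. WT with standard errors, for all rats, without 10RT43, 10RT46 and 7AKO19, and with Cdhr1 and Drd2 as covariates and 12RT23 left out as well. Slc32a1, which was chosen by its lower level in HIP rats, lies between -0.38 and -0.24 in every setting drawn. Vip moves from 1.03 to 0.14 in HIP vs. WT and from 1.01 to 0.06 in AKO vs. WT when the 3 rats are left out.

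The relation of each member to olfactory bulb content was fitted over all 30 rats with group and Drd2 in the model. It is given as a slope, the log2 units of a gene per doubling of Cdhr1. With all rats 0 of 9 members had an adjusted p-value under 0.05 and 10.5% of all genes did. At an unadjusted p-value under 0.05 there were 4 of 9 (Gad1, Npy, Cck and Calb2, all upward) beside 23.8% of all genes. Without 10RT43, 10RT46 and 7AKO19 (27 rats) 5 of 9 members had an adjusted p-value under 0.05, where 17.4% of all genes had one.

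Calb2 rose most in these 27 rats, by 0.46 log2 units per doubling of Cdhr1 (95% interval 0.35 to 0.56). Gad1 rose by 0.13 (0.06 to 0.20, adjusted p = 0.0063 in limma) and Slc32a1 by 0.07 (0.02 to 0.12, adjusted p = 0.039). The slopes of the interneuron peptides Sst, at -0.09 (-0.15 to -0.03, adjusted p = 0.032), and Vip, at -0.13 (-0.16 to -0.09), were downward. With all 30 rats the slopes of Sst and Vip were 0.02 and 0.18, of the opposite sign. Gad2 (0.07, -0.04 to 0.17), Npy (0.00, -0.05 to 0.06), Cck (0.01, -0.06 to 0.08) and Reln (0.09, 0.01 to 0.18) had adjusted p-values of 0.13 or more.

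The slopes depended on the 5 rats with most Cdhr1. With those left out as well (22 rats), 2 of 9 members had an adjusted p-value under 0.05 in limma and 4.92% of all genes did. The members were Calb2, at 0.38 per doubling (0.19 to 0.57, adjusted p = 0.016), and Vip, at -0.13 (-0.19 to -0.07, adjusted p = 0.014). In the same 22 rats the slope of Gad1 was -0.03 (-0.10 to 0.04) and that of Slc32a1 was -0.04 (-0.09 to 0.02), while Sst was at 0.01 (-0.08 to 0.10).

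Striatal content was fitted in the same way, as log2 units per doubling of Drd2 with group and Cdhr1 in the model. Of the 9 members 0 had an adjusted p-value under 0.05 in limma, where 0.246% of all genes had one. At an unadjusted p-value under 0.05 there were 4 of 9 beside 11.8% of all genes, 2 upward and 2 downward. Npy had a slope of 0.26 (0.08 to 0.44, adjusted p = 0.24) and Sst of 0.25 (0.05 to 0.45, adjusted p = 0.33). Reln was at -0.29 (-0.49 to -0.09, adjusted p = 0.27) and Calb2 at -0.46 (-0.82 to -0.09, adjusted p = 0.34). Without the 3 rats the same 4 genes had unadjusted p-values under 0.05, with slopes of 0.15, 0.13, -0.19 and -0.22, beside 11.3% of all genes. The adjusted count was again 0 of 9, beside 0.505% of all genes. Slc32a1 had a slope of 0.02 (-0.07 to 0.11) and Gad1 of -0.11 (-0.24 to 0.03).

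**Figure D4:**
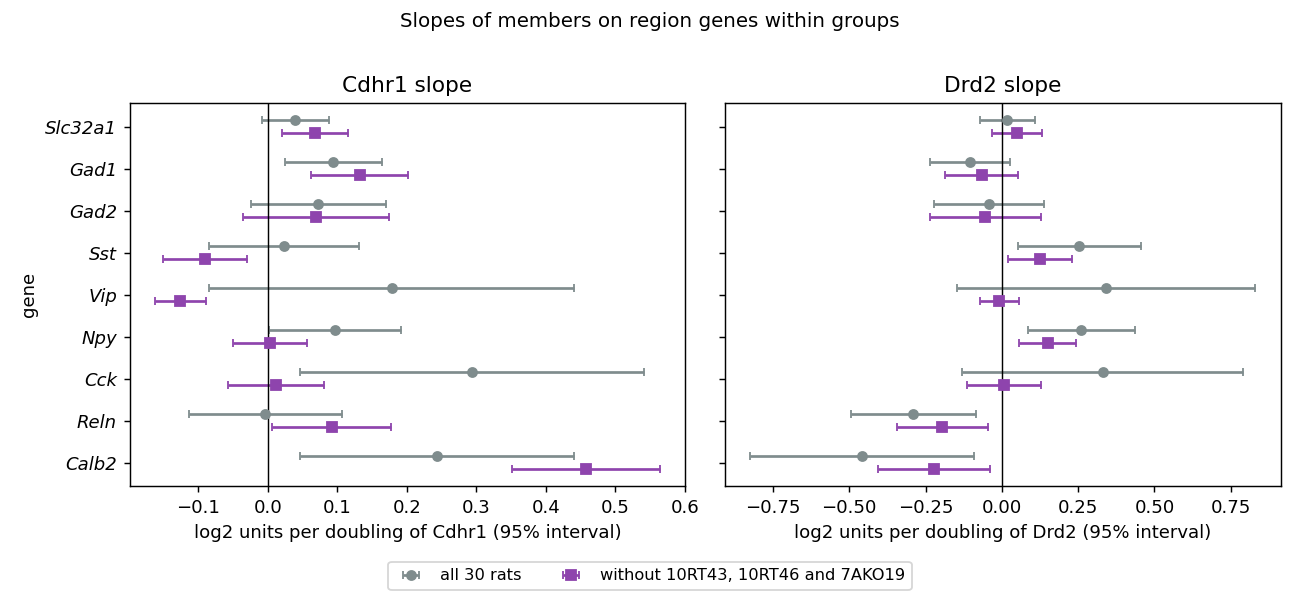
Slopes of the 9 genes on Cdhr1 and on Drd2, in log2 units per doubling of that gene, with 95% intervals, for all 30 rats (circles) and without 10RT43, 10RT46 and 7AKO19 (squares). On Cdhr1, Calb2 moves from 0.24 to 0.46 and Vip from 0.18 to -0.13 when the 3 rats are left out, and on Drd2 Npy and Sst stay above 0 and Reln and Calb2 below it.

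Other genes of GABA handling and of inhibitory neurons were counted in the same fits with all rats, in which 10.5% of all genes passed for Cdhr1 in either direction. Of 11 genes of GABA synthesis, transport and breakdown, 1 rose with Cdhr1 at an adjusted p-value under 0.05, namely Slc6a11, a GABA uptake transporter of astrocytes, at 0.25 (SE 0.04, adjusted p = 0.00013). The median slope of those 11 genes was 0.02, beside 0.00 over all genes. Of the 16 matched transcription factors of inhibitory neurons 6 rose and 0 fell with Cdhr1. Among them were Sp9 at 0.56 (SE 0.08), Dlx2 at 0.55 (SE 0.08), Dlx5 at 0.47 (SE 0.07) and Dlx6 at 0.44 (SE 0.08), factors that specify forebrain GABA neurons, and the median of the list was 0.07. Of 23 other interneuron markers 6 rose and 3 fell. Ndnf, a marker of neurogliaform cells, was at 0.23 (SE 0.04) and Tac1, the substance P precursor, at 0.40 (SE 0.07). The potassium channel gene Kcnc1 of fast-spiking cells was at -0.20 (SE 0.02) and the calbindin gene Calb1 at -0.17 (SE 0.04). WT rat 10RT43, which had the least Cdhr1, stood at 9263 of Kcnc1 and 9256 of Calb1, against at most 3766 and 1808 in the other WT rats.

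Without 10RT43, 10RT46 and 7AKO19, where 17.4% of all genes passed for Cdhr1, Kcnc1 was at -0.17 (SE 0.02) and Calb1 at -0.10 (SE 0.02). Of the 16 transcription factors 6 rose and 4 fell, and the median of the list was -0.0073. Sp9 was at 0.46 (SE 0.07) and Dlx2 at 0.38 (SE 0.04). Among those that fell, named after their values were seen, were Satb1, Lhx6 and Npas1, at -0.17, -0.11 and -0.082. Of the 23 interneuron markers 6 rose and 6 fell, and of the 11 GABA handling genes 1 rose and 1 fell.

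With Drd2, for which 0.246% of all genes passed, 1 of the 16 transcription factors rose, namely Lhx8, a factor of striatal cholinergic neurons, at 1.12 (SE 0.11). Lhx8 was near 0 in most rats, with medians of 0.41 in WT, 0.48 in HIP and 0 in AKO rats. Its highest value in each group was 27.9 (WT rat 10RT55), 6.6 (HIP rat 10RT54) and 15.1 (AKO rat 4KAH27). Of the 23 interneuron markers 2 rose with Drd2, Chat, the acetylcholine enzyme, at 0.66 (SE 0.09), and Tac1 at 0.73 (SE 0.13). Tac1 is also on the list of striatal genes counted below. For Drd2, 0 of the 11 GABA handling genes passed. Among the genes of the regions themselves, 7 of 10 bulb genes rose with Cdhr1 beside the 10.5% of all genes, with Trh at 1.17 (SE 0.08), and 8 of 11 striatal genes rose with Drd2, with the adenosine receptor gene Adora2a at 0.9995 (SE 0.06). In AKO vs. WT 0 of the genes of the lists of GABA handling, transcription factors and interneuron markers had an adjusted p-value under 0.05 in limma, beside 0.0997% of all genes. With all rats an unadjusted one was found for 2 of them, a share below the 9.34% of all genes. Without the 3 rats it was found for 1 of 11 GABA handling genes, 1 of 16 transcription factors and 5 of 23 interneuron markers. In that fit 1558 of all 17019 genes had one. Kcnc1 was at -0.64 (SE 0.24, adjusted p = 0.41), and at -0.45 (SE 0.19, adjusted p = 0.48) without the 3 rats.

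Slc32a1 was related to the other 8 members over rats, after each value was centred on the mean of its group. With all 30 rats Pearson's r with Gad1 was 0.84 (permutation p = 1e-05, the smallest that 100000 resamples can give, adjusted p = 8e-05 over 8 relations) and Spearman's rho was 0.78 (permutation p = 2e-05, adjusted p = 0.00016). Without 10RT43 and 6AKO52, the 2 rats farthest from the median of Slc32a1, r was 0.83. After adjustment Pearson's r passed for 6 of 8 members: Gad1, Reln (0.43) and Calb2 (0.55) upward, and Sst (-0.47), Vip (-0.38) and Cck (-0.36) downward. Without 10RT43, 10RT46 and 7AKO19 it passed for 2 of 8, Gad1 (0.83, permutation p = 1e-05) and Calb2 (0.48, permutation p = 0.00998, adjusted p = 0.04). Spearman's rho passed after adjustment for Gad1 alone in both settings.

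Since the rats with most Cdhr1 stood apart in Gad1, the relations were also taken in the 22 rats that remain without them and without the 3 rats. There r of Slc32a1 with Gad1 was 0.62 (permutation p = 0.035, adjusted p = 0.14) and with Npy 0.62 (permutation p = 0.021, adjusted p = 0.14). With Calb2 it was -0.14 (permutation p = 0.56, adjusted p = 0.83), and 0 of 8 relations passed after adjustment. The pooled relations therefore rested in part on the rats with most Cdhr1. The ratio of Slc32a1 to Gad1 was lowest in those rats, at 0.19 in 6AKO35, 0.22 in 10RT50, 0.23 in 10RT49, 0.24 in 10RT51 and 0.24 in 10RT53, against medians of 0.35 in WT, 0.27 in HIP and 0.36 in AKO rats.

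**Figure D5:**
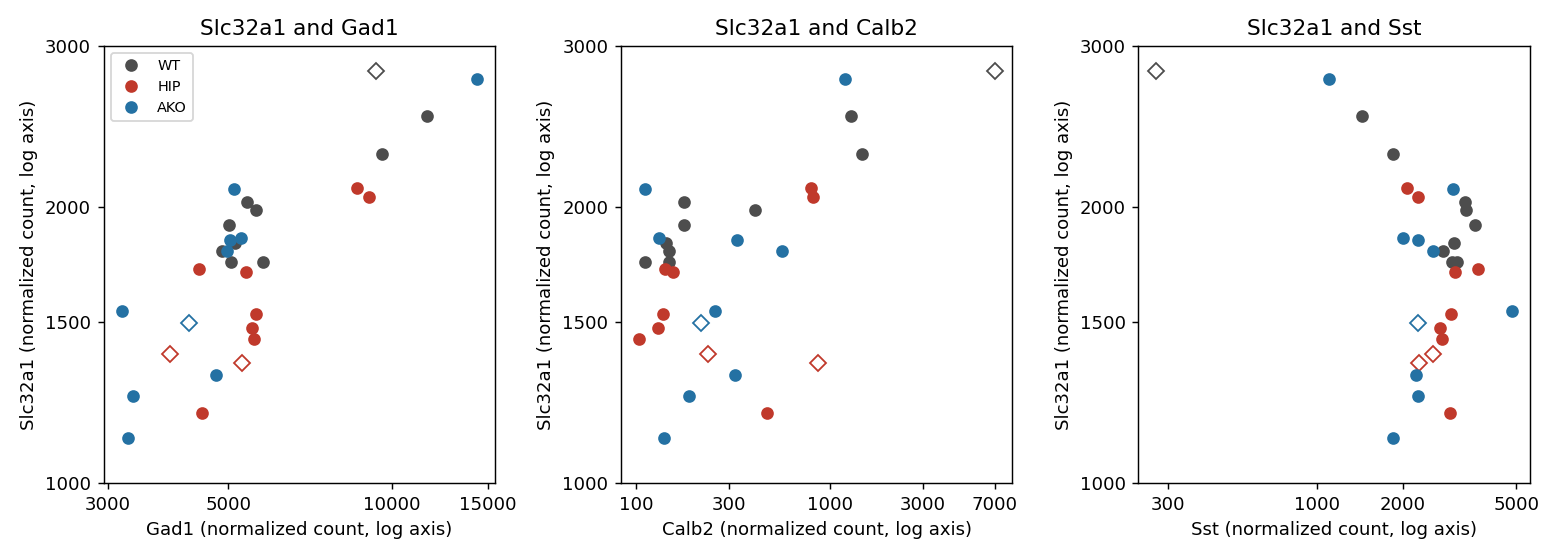
Slc32a1 against Gad1, Calb2 and Sst in each of 30 rats, as normalized counts on log axes, with open diamonds for 10RT43, 10RT46, 7AKO19 and 12RT23. The 6 rats with Gad1 of 8602 or more have Slc32a1 of 2054 or more, and WT rat 10RT43 lies alone at the low end of Sst and the high end of Calb2.

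The start regions of Slc32a1 and Gad1 are shown because both levels rose with Cdhr1 in the 27 rats, and that of Sst because it fell in the same rats. Each spans 250 bases before to 50 after the start of the gene in RefSeq on GRCr8, on the plus strand, and 8 of the 10 genes had an entry. Capitals mark the motifs searched on both strands: the cAMP response element TGACGTCA and its core TGACG, which overlaps it, TAATTA, a core of homeodomain factors such as Dlx, and the TATA box TATAAA. The region of Slc32a1 is chr3:167686995-167687294, that of Gad1 chr3:75777202-75777501 and that of Sst chr11:90461296-90461595.
Slc32a1: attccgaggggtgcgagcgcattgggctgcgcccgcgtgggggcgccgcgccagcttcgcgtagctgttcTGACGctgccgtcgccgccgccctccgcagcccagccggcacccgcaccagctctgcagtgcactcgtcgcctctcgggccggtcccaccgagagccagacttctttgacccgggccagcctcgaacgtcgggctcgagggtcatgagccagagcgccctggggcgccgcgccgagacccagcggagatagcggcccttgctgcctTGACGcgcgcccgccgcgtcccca
Gad1: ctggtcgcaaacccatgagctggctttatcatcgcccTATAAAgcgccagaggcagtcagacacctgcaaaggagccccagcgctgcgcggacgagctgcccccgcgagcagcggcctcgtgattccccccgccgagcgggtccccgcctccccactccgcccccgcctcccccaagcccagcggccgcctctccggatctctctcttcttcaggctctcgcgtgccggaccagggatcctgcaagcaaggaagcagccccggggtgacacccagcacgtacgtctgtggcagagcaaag
Sst: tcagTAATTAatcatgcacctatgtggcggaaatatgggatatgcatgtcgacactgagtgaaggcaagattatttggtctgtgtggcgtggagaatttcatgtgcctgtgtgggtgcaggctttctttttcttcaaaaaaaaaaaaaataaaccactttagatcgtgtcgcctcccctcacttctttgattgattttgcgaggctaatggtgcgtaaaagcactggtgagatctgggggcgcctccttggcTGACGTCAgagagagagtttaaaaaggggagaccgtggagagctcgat

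TGACGTCA was found in 1 of the 8 start regions, that of Sst, at base 3 after the annotated start, and in 1.83% of the 33469 start regions of the genome. TGACG was found in 4 of 8 (Slc32a1, Pvalb, Sst and Vip) and in 21.2% of all. Slc32a1 held it 180 bases before the start and at base 27 after it. TATAAA was found in 2 of 8 (Gad1 and Vip) and in 14.22% of all, and TAATTA in 1 of 8 (Sst) and in 5.36% of all. The TATAAA of Gad1 was at base -213 from the start, and those of Vip were at -175, -165 and -48. The share of G and C was 73.7% for Slc32a1, 67.7% for Gad1 and 45.7% for Sst, beside a median of 51.7% over all start regions. A match of letters is a description and was not compared with the levels.

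The genes whose levels followed each member most closely over the 30 rats were taken as a description, among 13703 genes with a symbol and a mean of at least 10. Slc32a1 was closest to Cited2, a transcriptional coactivator (Spearman's rho 0.82), Dnajb9 (0.77) and Clk4 (0.73). Gad1 was closest to the zinc finger gene Zfp385d (0.86), RGD1304884 (0.83) and Clvs1 (0.80). Gad2 followed Zbtb43 (0.90), the synaptic vesicle protein gene Sv2c (0.89) and Ino80d (0.87), a chromatin remodeller subunit. Reln followed Nrxn3 (0.91), a synaptic adhesion gene, Kmt5b (0.90), a histone methyltransferase gene, and Zfp266 (0.90). Calb2 followed Rfx2 (0.89) and Igfbp5 (0.87).

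Among the peptide genes, Sst followed Ankrd13d (0.84), Neu2 (0.84) and Ppial4d (0.81). Vip followed Tfpi (0.85), Plcl2 (0.84) and Psrc1 (0.82). Cck followed Syt5 (0.87), a synaptotagmin, Arhgdig (0.86) and the glycolytic enzyme gene Gpi (0.85). Npy had the weakest likeness, with Fkbp3 (0.67), Slc25a23 (0.66) and Jdp2 (0.65). Without 10RT43, 10RT46, 7AKO19 and 12RT23 the closest gene was Rerg for Slc32a1 (0.86), Zfp385d for Gad1 (0.82), Tet2 for Gad2 (0.91), Cdk2ap1 for Vip (0.90), Nprl2 for Npy (0.72), Arhgdig for Cck (0.89) and Zfp266 for Reln (0.92). These points share libraries, depth and tissue makeup, so the values describe likeness over these rats alone.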

How the data were processed

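Brain RNA of 30 rats (10 WT, 10 HIP, 10 AKO) was sequenced. Reads were mapped to rn7 by the authors (Partek 10.0.22.0228, with Bowtie2 and STAR 2.7.8a in the submitters' processing notes), assigned to Ensembl 105 genes and normalized with DESeq2. What was deposited is a signal, these normalized counts. Of the values below 40, 82.2% to 86.0% in a rat were whole multiples (within 0.02 steps) of a single step, so whole reads were not recovered and no count test was run. Estimated reads were 12.9 to 21.1 M in WT, 13.7 to 16.7 M in HIP and 12.9 to 23.6 M in AKO rats, so depth was not the same in the groups. The groups came from the labels.

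Tests were made with limma 3.58.1 in R 4.3.3 (lmFit, eBayes with trend), two-sided, on log2(normalized count + 1), which understates the change of low genes. Genes averaging 1 or more in the rats compared were used, all 9 matched members included, and p-values were adjusted by Benjamini-Hochberg over all tested genes. The slopes came from 1 model of group, Cdhr1 and Drd2. Relations were tested by permutation within groups (100000 resamples, with numpy 2.4.6 in Python 3.11.15). The limma model was first checked with simulated counts. Start regions came from RefSeq on GRCr8.

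The members and the gene lists were chosen with earlier results of these data known. Named were all members, Cdhr1 and Drd2, the 3 genes most like each member, genes of each list with the smallest p-values (at most 4 a list), and genes of another region where a rat stood apart. A few genes that this rule names are not reported here. Alternatives were a pseudocount of 0.1 or 5, all genes kept, genes averaging 10 or more, quantile normalization, robust eBayes, 1 fit of all rats, covariates, subsets of the AKO rats by name, and each rat left out. Chosen after seeing the data were the settings that leave out 12RT23 or the 5 rats with Cdhr1 above 3000.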

Additional observations from a re-analysis of the deposited data

Results flagged for a closer look

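In 7 of the 33 sets of 10 rats examined (9 members and the 2 region genes in 3 groups), a rat stood apart from the rest of its group. It lay beyond the critical value of Dixon's test on the log2 scale. Chance gives 1.65 such sets if the sets are independent and the log2 values normal. The sets of a group hold the same 10 rats and most of the 7 were 10RT43, so 7 cannot be weighed against 1.65. WT rat 10RT43 was the lowest of its group in Sst (273.9, others 1442 to 3594), Vip (0, others 382.1 to 711.1), Npy (84.91, others 654 to 1085) and Cck (10.76, others 5320 to 10436), and the highest in Reln (5844, others 633.7 to 1698). In the same rat Gabra6 was 17979, and the part of other-region tissue in these values was not tested. AKO rat 6AKO35 had the highest Gad1 of its group, 14343 against 3181 to 5285 in the others, and its Cdhr1 was 7705. AKO rat 6KAH98 had the lowest Gad2 of its group, 200.5 against 591.6 to 1873.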

How the results depend on the processing

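Pseudocounts, filters and robust eBayes left each count of members and genes within 1.5 times its value. The HIP vs. WT difference of Slc32a1 was negative in every setting run. Slc32a1 was chosen by that sign in these same rats, so the sign is a description and no support. In HIP vs. WT, 439 genes had an unadjusted p-value under 0.05, 817 without 10RT43, 10RT46 and 7AKO19, and 309 to 779 with each rat left out, the last without 10RT46. With Cdhr1 and Drd2 as covariates 962 of 17083 genes had one, and 1218 of 16976 with those 3 rats and 12RT23 also left out. In both fits with covariates 2 of 9 members had one, Slc32a1 with Gad1 in the first and with Calb2 in the second. Since this contrast chose Slc32a1, these counts are a description and nothing is read from them. In AKO vs. WT, members with an unadjusted p-value under 0.05 numbered 1 (Slc32a1, whose WT rats chose it), 0 after quantile normalization, without the 3 rats or with only the rats named AKO, 2 with covariates, 4 with covariates and without the 4 rats, and 0 to 2 with each rat left out (2 without 6AKO35, 0 without 10RT43, 10RT50, 10RT51, 6AKO52, 6KAH98, 6KAH99, 7AKO19 or 7AKO42). Both covariate fits counted Slc32a1 among these members. Of all tested genes, 1588 of 17056 had such a p-value with covariates. With covariates and without the 4 rats, 1854 of 17017 had such a p-value. Genes with an adjusted one numbered 17, 27 in 1 fit of all rats, 68 with only the rats named AKO, 0 with only those named KAH and 10 to 39 with each rat left out (38 or 39 without 6KAH99 or 4KAH27, 10 or 11 without 10RT38, 10RT45, 10RT47, 6AKO52 or 7AKO19). Sst was at -0.25 without the 3 rats, -0.095 with covariates and without the 4 rats, -0.19 with only the rats named AKO and -0.25 to 0.20 with each rat left out, and Npy at -0.084, at -0.031 with covariates and without the 4 rats, and -0.084 to 0.32. In HIP vs. AKO, 29 genes had an adjusted p-value under 0.05, 47 without the 3 rats, 13 without the 4, 56 in 1 fit of all rats, 120 with only the rats named AKO (1 member unadjusted), 3 with those named KAH and 17 to 70 with each rat left out (70 without 10RT46, 58 without 4KAH27, 17 to 19 without 10RT41, 10RT42, 10RT52, 10RT53, 12RT23, 6AKO52, 7AKO19 or 7AKO28). Members with an unadjusted one numbered 0 to 1 with each rat left out, 1 without 6AKO35 or 6KAH98. With only the rats named AKO, the 1 member (Sst) stood beside 1910 of 17075 genes.

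The Cdhr1 slope passed for 1803 genes, 2965 without the 3 rats, 3044 without the 4 and 838 without the 3 and the 5 with most Cdhr1. Members passing numbered 1 after quantile normalization, for which the count of all genes is not given here. They numbered 5, 4 and 2 in those subsets (2 unadjusted in the last) and 3 without 10RT43 and 10RT51, the 2 rats farthest from the median. With each rat left out they numbered 0 to 5, 5 of them without 10RT43 and 1 without 10RT37. Of all genes, 2110 of 17079 passed without the 2 farthest rats, 2672 of 17080 without 10RT43, and 1367 to 2672 with each rat left out. Without the 5 and the 3 rats Slc32a1 was at -0.036, Gad1 at -0.028, Gad2 at -0.047, Vip at -0.13, Npy at -0.014 and Reln at 0.0012. Without the 3, the 4 and the 2 farthest rats Sst was at -0.090, -0.094 and -0.087, Vip at -0.13, -0.13 and -0.14, and Reln at 0.092, 0.10 and 0.074. Npy was at -0.0018 without the 4 and -0.0041 without the 2 farthest rats, and Reln at 0.013 without Drd2 in the model. With each rat left out Sst ranged from -0.087 to 0.045, Vip from -0.13 to 0.21 and Reln from -0.023 to 0.081. The Drd2 slope passed for 42 genes, 86 without the 3 rats, 84 without the 4, 18 without the 2 farthest and 32 to 124 with each left out (124 without 4KAH35, 70 without 6KAH98, 67 without 10RT43), and Slc32a1 was at -0.0082 without the 2 farthest and -0.0042 to 0.051 with each left out. Relations of Slc32a1 passed for 6, 2 without the 3 or the 4 rats and 0 without the 5 and the 3. In the last setting r was 0.36 with Sst, 0.10 with Vip, 0.62 with Npy, -0.23 with Reln and -0.14 with Calb2. With Npy it was 0.30 without the 3 and 0.27 without the 4 rats. The causes of these changes were not tested. Depth limits the low genes most, and no count test was run on these values.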
